A study of Mus musculus with 6 samples.

Results

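The Notch pathway was examined in the calvaria, the roof of the skull, of newborn mice through 10 named genes, which are the receptor genes Notch1, Notch2, Notch3 and Notch4, the ligand genes Jag1, Jag2 and Dll4, and the target genes Hes1, Hey1 and Heyl. All 10 were found by symbol among the 24346 gene names of the deposited tables, and all 10 were among the 13180 names tested, those averaging 1 FPKM or more. FPKM scales fragment counts to transcript length and to the mapped fragments of the library, so levels of different genes can be set side by side. The messenger RNA came from whole dissected calvaria with the interparietal and occipital bone and without ear cartilage. There were 3 control libraries of genotype Pth1rfl/fl and 3 mutant-labelled libraries, of genotype Prx1-Cre;Pth1rfl/fl, so both groups carry the floxed alleles of Pth1r, the receptor of parathyroid hormone and its related protein. Prx1-Cre, driven by a Prrx1 enhancer, acts in limb and skull mesenchyme, and no library with Prx1-Cre and unfloxed Pth1r was analysed here. The age is given only as newborn, while strain, sex and any pooling of animals are not stated in the labels, so p-values measure the spread between these libraries. Per its title, the study asked how this receptor acts on skull cartilage and sutures.

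Notch receptors are single-pass membrane proteins that are activated by ligands on neighbouring cells. Binding leads to cleavage by an ADAM protease and then by gamma-secretase, and the freed intracellular part joins the DNA-binding protein RBPJ and Mastermind proteins to switch on genes of the Hes and Hey families of transcriptional repressors. In the skeleton the pathway is known to restrain the differentiation of osteoblasts and to act in osteoclast formation, Notch4 and Dll4 are known mainly from the lining of blood vessels, and Notch3 is known from the mural cells that wrap them.

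The libraries carry the marks of the labelled tissue. Among osteoblast markers, the type I collagen gene Col1a1 and the osteopontin gene Spp1 were the highest, with Col1a1 up to 13131 FPKM. The 8 osteoblast genes summed to 13045 to 14513 FPKM in controls and 14339 to 19451 in the mutant-labelled libraries, mostly from Col1a1. Ratios of mean FPKM were 1.05 for Col1a1 and 1.51 for Spp1. All 8 had positive log2 changes, with a median of 0.43, and 1 passed the threshold, against 0.524% of tested genes with a higher value. In 6 of the 8, every mutant-labelled library lay above every control, against 9.34% of tested genes. Pth1r itself was not lower in the mutant-labelled libraries (89.2, 93.3 and 102 FPKM in controls, and 127, 125 and 142), so the targeted gene goes against the labels, and directions below rest on the labels only. The labels do not say which exons are floxed, and exons left in place can add to the value of the gene. Pth1r also overlaps a protein-coding gene on the other strand, and the part of its reads in the Pth1r values was not tested. Control 2 stands apart in inner ear genes, with 56.6 FPKM of Oc90 and 22.5 of Otor where no other library reached more than 1.00 and 1.995. Mutant-labelled library 2 stands apart in the neuronal genes Tubb3 and Stmn2, at 59.2 and 26.9 FPKM, which bring the sum of 8 nerve genes to 103 FPKM against 19.4 to 58.8 elsewhere. The other 6 nerve genes summed to 16.9 FPKM there, to 15.8, 23.6 and 24.6 in controls and to 18.2 and 7.24 in mutant-labelled libraries 1 and 3, and all 8 had negative log2 changes, with none past the threshold. Of 8 epidermis genes, Krt10 and Trp63 had the highest means, and no gene of the list exceeded 2.47 FPKM in any library. Osteoclast genes, led by Ctsk and Acp5, summed to 586 to 657 FPKM in controls and 1606 to 1752 in the mutant-labelled libraries. Cartilage genes, led by Col2a1 and Col11a2, summed to 1690, 1687 and 880 FPKM in controls and to 489 to 605 in the mutant-labelled libraries. Control 3 thus stands apart from the other controls in cartilage genes, with Col2a1 at 348 FPKM against 802 and 788 in controls 1 and 2.

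The promoters of Notch4 and Dll4 are shown because these vessel genes are followed furthest below. They are the 250 bases before and the first 30 bases after each RefSeq gene start, on GRCm38.p6 and the plus strand, at chr17:34564045-34564324 for Notch4 and chr2:119325534-119325813 for Dll4.
Notch4: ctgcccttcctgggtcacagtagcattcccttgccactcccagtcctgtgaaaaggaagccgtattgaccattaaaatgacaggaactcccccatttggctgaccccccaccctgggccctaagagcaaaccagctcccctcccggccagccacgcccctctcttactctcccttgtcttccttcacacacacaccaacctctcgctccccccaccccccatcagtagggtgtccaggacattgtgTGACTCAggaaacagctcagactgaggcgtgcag
Dll4: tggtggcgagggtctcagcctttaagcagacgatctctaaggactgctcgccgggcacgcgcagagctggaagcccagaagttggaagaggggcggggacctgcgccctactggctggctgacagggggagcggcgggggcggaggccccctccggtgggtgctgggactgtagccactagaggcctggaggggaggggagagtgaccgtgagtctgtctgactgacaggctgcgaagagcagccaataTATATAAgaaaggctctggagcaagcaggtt
Capitals mark letter matches to 3 motifs searched on both strands, TGGGAA (the core bound by RBPJ), TGANTCA (the AP-1 site, which reads alike on both strands) and TATANAA (the TATA box). In Notch4 the capitals are an AP-1 match from base -4 to base 3 around the start, and in Dll4 a TATA box match from base -1 to base 6. Over all 32851 windows of 280 bases in the table, 23.8% held TGGGAA, 7.46% TGANTCA and 11% TATANAA. The table held 7 of the 10 members, and these were the 2 matches in their windows. A match of letters is not evidence that a factor binds there.

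Over the 6 libraries the members lay between 5.49 and 24.3 FPKM on average. Notch3 and Hes1 were the most abundant, at 24.3 and 23.8 FPKM, and their ranges overlapped, with Notch3 above Hes1 in 3 of 6 libraries. Notch2 came next at 15.6 FPKM, below the lowest Hes1 value in every library. Jag1 followed at 12.2 FPKM, with a range below that of Notch2. From Jag1 downward each neighbour in the order Heyl (11.3 FPKM), Notch1 (9.82), Jag2 (7.85), Hey1 (7.55), Notch4 (7.18) and Dll4 (5.49) had a range that overlapped the one before it. These levels place Notch3 at the 75.4th percentile of tested genes by mean FPKM and Dll4 at the 31.4th.

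Compared between groups, none of the 10 members passed an adjusted p of 0.05 (limma on log2(FPKM + 1), Benjamini-Hochberg adjustment over all 13180 genes), a threshold that 0.607% of tested genes passed, 0.524% with a higher value. At an unadjusted p under 0.05 there were 5 members, Notch2, Notch3, Notch4, Hey1 and Heyl, all higher on average in the mutant-labelled libraries, where 10.5% of tested genes reached that level in either direction and 5.91% with a higher value. In 6 of the 10 members, these 5 and Jag1, every mutant-labelled library lay above every control, against 9.34% of tested genes, and no member had all its values lower. The median log2 change of the members was 0.13, with 8 positive and 2 negative, and that of all tested genes was 0.0015, with 50.5% positive. The smallest adjusted p was that of Hey1 (0.107), so at 3 libraries a group no single member was resolved over all genes. In bulk tissue, a change in the number of cells of a type and a change in RNA per cell cannot be told apart.

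**Figure D1:**
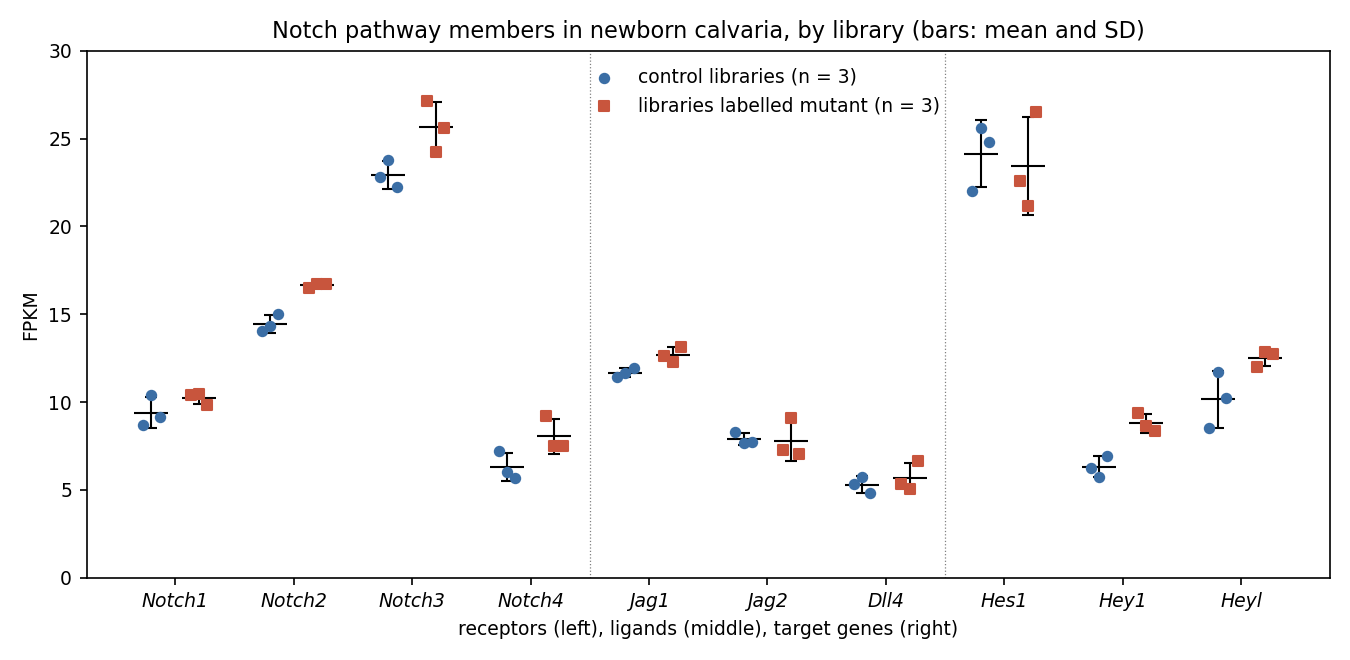
FPKM of each member in each library (vertical axis, linear, from 0), with controls as circles, mutant-labelled libraries as squares, and the mean and SD of 3 libraries as black bars. The 2 groups separate fully for Notch2, Notch3, Notch4, Jag1, Hey1 and Heyl and overlap for Notch1, Jag2, Dll4 and Hes1.

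The means of all 4 receptor genes were higher in the mutant-labelled libraries, without passing the threshold. Notch2, whose truncating mutations are known to cause a human disorder of bone resorption and skull shape, had 14.0, 14.3 and 15.0 FPKM in controls and 16.5, 16.7 and 16.8 in the mutant-labelled libraries. The groups did not overlap, and the spread in the mutant-labelled libraries was small (16.7 ± 0.119 FPKM against 14.5 ± 0.51 in controls, SD, n = 3 each). Its log2 change was 0.19 ± 0.05 (SE), a mean 15.2% higher, with an adjusted p of 0.242 in limma and between 0.2003 and 0.505 over the other settings tried. Notch3, the most abundant receptor gene, had 22.8, 23.8 and 22.2 FPKM in controls and 27.1, 24.2 and 25.6 in the mutant-labelled libraries. Its groups were separated by the narrow step from control 2 to mutant-labelled library 2, and its log2 change was 0.15 ± 0.06 (SE; limma adjusted p = 0.455).

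Notch4, the receptor of vessel lining, was the lowest of the receptor genes and had the largest relative difference among them. It had 7.21, 6.01 and 5.70 FPKM in controls and 9.20, 7.48 and 7.50 in the mutant-labelled libraries, with no overlap, although control 1 came close to libraries 2 and 3. The mean was 27.8% higher and the log2 change 0.31 ± 0.11 (SE; limma adjusted p = 0.368, and from 0.230 to 0.680 over the other settings). Notch1, the receptor gene expressed in many cell types, had 8.68, 10.4 and 9.15 FPKM in controls and 10.4, 10.5 and 9.85 in the mutant-labelled libraries. Control 2 lay within the range of the mutant-labelled libraries, and the log2 change was 0.12 ± 0.08 (SE; limma adjusted p = 0.695), 0.065 without control 1 and 0.18 without control 2. An unadjusted 95% interval for Notch1 ran from -0.07 to 0.30 on the log2 scale, so a rise of up to 1.23-fold in FPKM + 1 lies within it.

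Summed over the 4 receptor genes, the level was 52.7, 54.5 and 52.1 FPKM in controls and 63.3, 58.8 and 59.7 in the mutant-labelled libraries. These sums did not overlap. Of the sum, Notch3 held 43.2 ± 0.499% in controls and 42.3 ± 0.985% in the mutant-labelled libraries (SD, n = 3 each), Notch2 27.2 ± 1.40% and 27.5 ± 1.22%, Notch1 17.7 ± 1.31% and 16.9 ± 0.733%, and Notch4 11.9 ± 1.55% and 13.3 ± 1.10%. In exact permutation tests of the difference in mean share, two-sided, p was 0.3 for Notch3, 1 for Notch2, 0.7 for Notch1 and 0.3 for Notch4, where 0.1 is the lowest p possible with 3 libraries in each group. The direction of the Notch2 share changed without control 1, control 2 or mutant-labelled library 2.

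The log2 changes of the ligand genes ran from -0.026 to 0.113 and those of the receptor genes from 0.115 to 0.31. The highest ligand gene, Jag1, and the lowest receptor gene, Notch1, were thus nearly level, and ligand and receptor genes were not compared by a test. Jag1, the ligand gene whose loss is known to affect bone and craniofacial development, had 11.4, 11.7 and 11.9 FPKM in controls and 12.6, 12.3 and 13.2 in the mutant-labelled libraries. The groups did not overlap, but the mean was only 8.83% higher, a log2 change of 0.11 ± 0.06 (SE; limma adjusted p = 0.575). Jag2, a ligand gene of the same Jagged family, had 8.30, 7.66 and 7.76 FPKM in controls and 7.25, 9.08 and 7.03 in the mutant-labelled libraries. Its highest value lay in mutant-labelled library 2 and its lowest in library 3, so the groups overlapped, and the log2 change was -0.03 ± 0.10 (SE; limma adjusted p = 0.964). Mutant-labelled library 2 also had the highest Tubb3 and Stmn2 values, and library 3 the lowest (7.63 and 4.50 FPKM). Muscle genes, led by Acta1 and Mylpf, summed to 16898 FPKM in control 1, 14920 in mutant-labelled library 2 and 8853 in library 3. Jag2 was likewise highest in control 1 and mutant-labelled library 2 and lowest in library 3. The part of these cell types in the Jag2 values was not tested.

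Dll4, the ligand of vessel lining and of sprouting tips, had 5.35, 5.77 and 4.82 FPKM in controls and 5.33, 5.04 and 6.65 in the mutant-labelled libraries. The groups overlapped, and mutant-labelled library 3 alone lay above the controls. The log2 change was 0.08 ± 0.11 (SE; limma adjusted p = 0.891), with an unadjusted 95% interval from -0.19 to 0.34. Without mutant-labelled library 3 the log2 change was -0.027. Within the summed ligand FPKM, Jag1 held 46.9 ± 1.61% in controls and 48.5 ± 1.79% in the mutant-labelled libraries, Jag2 31.8 ± 1.31% and 29.8 ± 4.16%, and Dll4 21.3 ± 1.65% and 21.7 ± 2.89% (SD, n = 3 each). Exact permutation tests of these shares, two-sided, gave p = 0.2 for Jag1, 0.5 for Jag2 and 1 for Dll4. The Jag2 share differed by -2.00 percentage points, by -0.203 without mutant-labelled library 3 and by -4.28 without library 2.

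**Figure D2:**
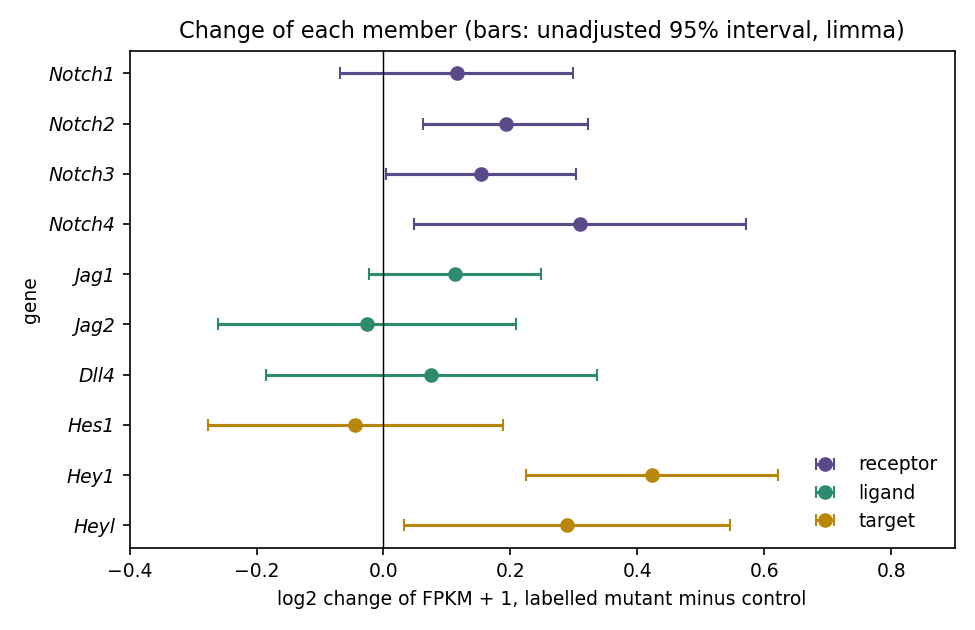
Log2 change of FPKM + 1, labelled mutant minus control (horizontal axis), for each member, with the unadjusted 95% interval from limma as bars and the role as colour. Hey1 lies farthest from 0 at 0.42, Notch4 at 0.31 and Heyl at 0.29, and the intervals of Notch1, Jag1, Jag2, Dll4 and Hes1 include 0.

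The target genes held both the largest change among the members, that of Hey1, and a gene, Hes1, whose groups overlapped. Hey1, a repressor known as a target of both Notch and BMP signalling in osteoblasts and vessels, had 6.28, 5.74 and 6.93 FPKM in controls and 9.41, 8.64 and 8.34 in the mutant-labelled libraries. The groups were well apart, with means of 6.31 ± 0.596 and 8.79 ± 0.554 FPKM (SD, n = 3 each), 39.3% higher. The log2 change was 0.42 ± 0.08 (SE), and the limma adjusted p of 0.107, which did not pass, ran from 0.101 to 0.353 over the other settings. Heyl, a relative known from mural cells, had 8.501, 11.7 and 10.2 FPKM in controls and 12.0, 12.9 and 12.7 in the mutant-labelled libraries. The groups were parted by the small step from control 2 to mutant-labelled library 1, and control 1 was the lowest (log2 change 0.29 ± 0.11 SE, limma adjusted p = 0.405). Without control 1 the log2 change was 0.18.

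Hes1, the most abundant target gene and one that other pathways also induce, had 22.01, 25.6 and 24.8 FPKM in controls and 22.6, 21.2 and 26.5 in the mutant-labelled libraries. The groups overlapped fully, and the log2 change was -0.04 ± 0.10 (SE; limma adjusted p = 0.935), with an unadjusted 95% interval from -0.28 to 0.19. The direction for Hes1 was positive without mutant-labelled library 2 (0.023).

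The shares of the 3 target genes in their summed FPKM were examined after their values were seen. Hes1 held 59.8, 59.4 and 59.2% in controls and 51.4, 49.6 and 55.7% in the mutant-labelled libraries, with no overlap and little spread among controls. Hey1 held 17.1, 13.3 and 16.5% in controls and 21.4, 20.2 and 17.5% in the mutant-labelled libraries, and Heyl 23.1, 27.2 and 24.3% against 27.3, 30.1 and 26.8%. The mean Hes1 share differed by -7.23 percentage points, the Hey1 share was 4.08 points higher and the Heyl share 3.15 points higher. Exact permutation tests, two-sided, gave p = 0.1 for Hes1 and for Hey1, the smallest p this design allows, and 0.2 for Heyl, and the 3 shares are bound to sum to the whole. Per library, the ratio of Hey1 to Hes1 was 0.285, 0.224 and 0.279 in controls and 0.416, 0.408 and 0.314 in the mutant-labelled libraries.

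**Figure D3:**
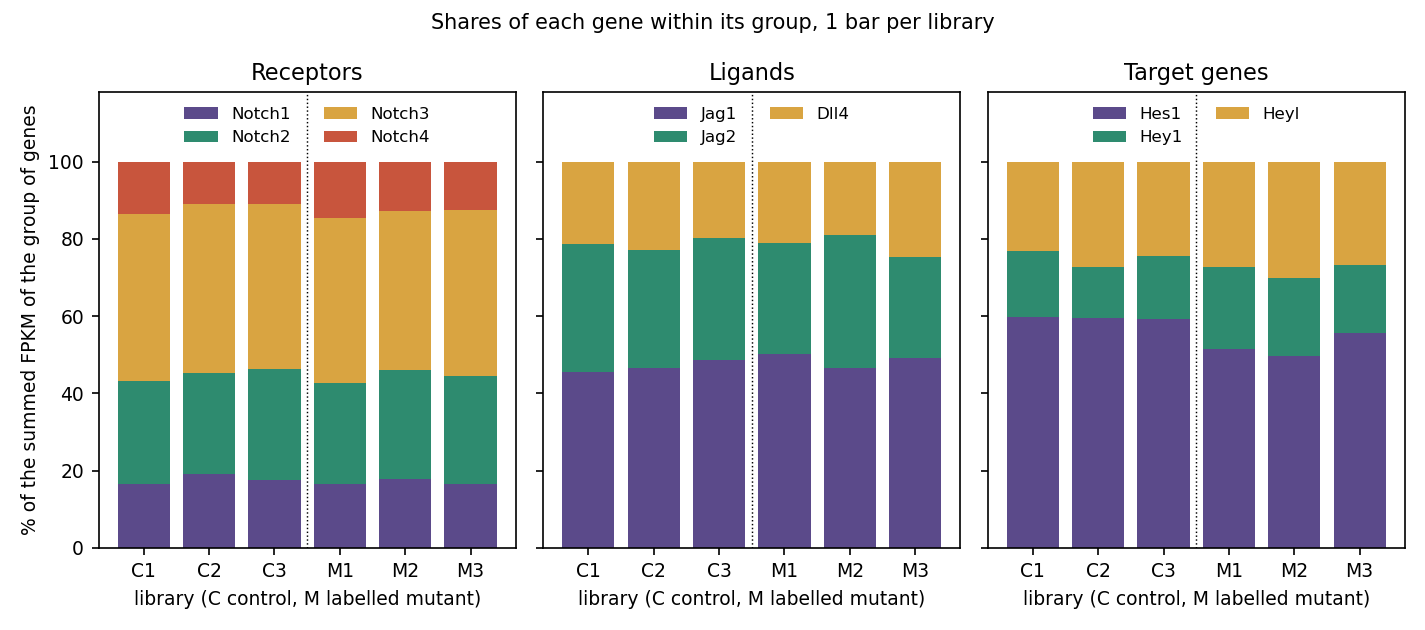
Share of each gene in the summed FPKM of the 4 receptor, 3 ligand and 3 target genes (vertical axis, %), 1 bar per library, with control libraries C1 to C3 and mutant-labelled libraries M1 to M3. Receptor and ligand shares overlap between groups for every gene. The Hes1 share lies at 59.2% or more in controls and at 55.7% or less in the mutant-labelled libraries. The Hey1 share lies at 17.1% or less in controls and at 17.5% or more in the mutant-labelled libraries, and the Heyl shares overlap.

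The members of vessel lining were set against 11 endothelial marker genes. Of these 11, 10 had a positive log2 change, against 50.5% of tested genes. In 7 of them every mutant-labelled library lay above every control, against 9.34% of tested genes. Only 1, the sialomucin gene Emcn, passed the threshold, against 0.524% of tested genes with a higher value. Emcn had 28.4, 31.0 and 28.8 FPKM in controls and 38.4, 38.1 and 38.5 in the mutant-labelled libraries (limma adjusted p = 0.0476). That call ended when any 1 library was left out, with no filter on low values, with untrended eBayes and with the replicate number as a block (adjusted p from 0.0413 to 0.192 over the settings tried). The junction genes Pecam1 and Cdh5 had ratios of mean FPKM of 1.11 and 1.16, the receptor gene Tie1 1.19 and the adhesion gene Esam 1.17, none past the threshold. The list summed to 404, 402 and 374 FPKM in controls and 446, 433 and 439 in the mutant-labelled libraries, so the groups did not overlap, and its median log2 change was 0.15.

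Relative to the mean log2 level of these endothelial genes, Notch4 lay at -2.01, -2.25 and -2.19 in controls and at -1.83, -2.07 and -2.08 in the mutant-labelled libraries. On this scale the groups overlapped, since control 1 lay above libraries 2 and 3, and the difference of 0.16 was 51.2% of the unscaled log2 change (exact permutation test, two-sided, p = 0.3). It was 0.076 without mutant-labelled library 1 and ran up to 0.228, without control 1. Dll4 lay at -2.39, -2.30 and -2.39 in controls and at -2.52, -2.56 and -2.23 in the mutant-labelled libraries, a difference of -0.08 (exact permutation test, two-sided, p = 0.5). Libraries 1 and 2 labelled mutant lay below all controls and library 3 above them. The ratio of Notch4 to Dll4 FPKM was 1.35, 1.04 and 1.18 in controls and 1.73, 1.48 and 1.13 in the mutant-labelled libraries, so library 3 fell among the controls.

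**Figure D4:**
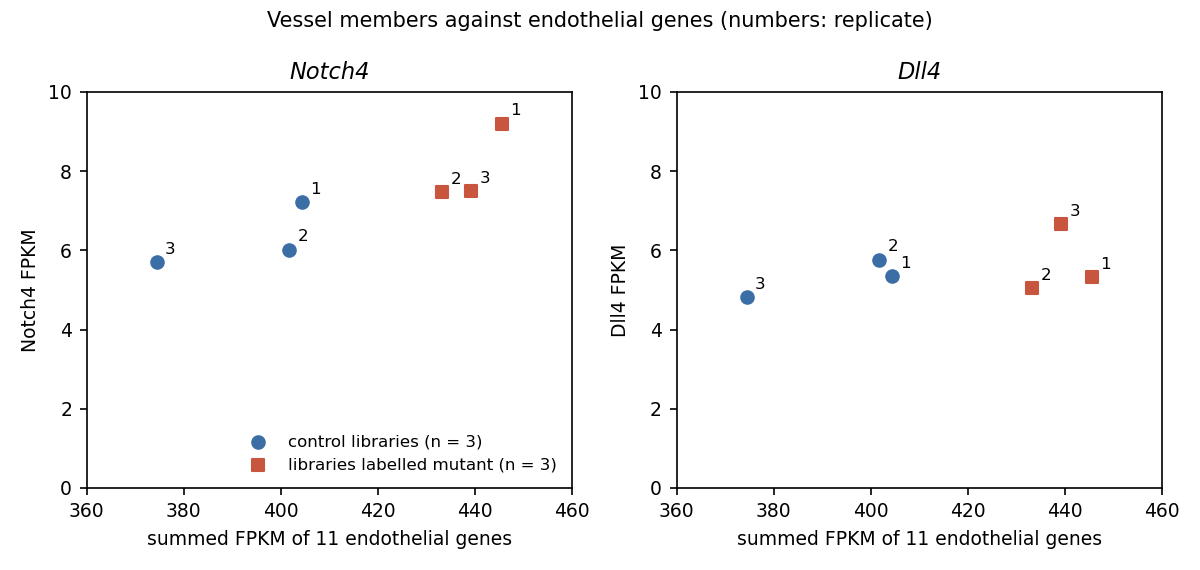
FPKM of Notch4 (left) and Dll4 (right) on the vertical axes against the summed FPKM of 11 endothelial genes on the horizontal axes, 1 point per library, numbered by replicate. Notch4 runs from 5.70 FPKM in control 3, which has the lowest endothelial sum, to 9.20 in mutant-labelled library 1, which has the highest, and Dll4 is highest in mutant-labelled library 3 at 6.65.

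Among arterial genes, led by Efnb2 and Gja4, none of 4 tested passed, with sums of 32.3 to 36.3 FPKM in controls and 34.4 to 37.2 in the mutant-labelled libraries. Notch3 and Heyl are known from mural cells, and 9 mural genes had a lower sum in the mutant-labelled libraries. It was 286 to 289 FPKM in controls and 256 to 272 in the mutant-labelled libraries, with Acta2 and Tagln, genes of contractile cells, at ratios of 0.847 and 0.823. The other 7 genes summed to 133 to 142 FPKM in controls and 136 to 140 in the mutant-labelled libraries, which overlap. Of the 9, 3 had a positive and 6 a negative log2 change, with a median of -0.042 and none past the threshold. Across the 6 libraries the tested genes most like Notch4 were Pnpla7, Wdr92 and Tmem176b (Pearson r of log2 values 0.996, 0.993 and 0.989), and those most like Dll4 were Tsta3, Kif20a and Zfp101 (0.989, 0.981 and 0.979). An r of 0.9 was exceeded by 0.979% of tested genes with Notch4 and by 0.865% with Dll4, over 6 libraries of the same tissue.

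The rest of the pathway was read from a list of 46 other genes, of which 39 reached the filter and none passed the threshold, against 0.607% of tested genes. At an unadjusted p under 0.05 there were 2, against 10.5% of tested genes, and the median log2 change was 0.01. Of the 39, the groups did not overlap in 3 that were higher and 1 that was lower. Over all tested genes 16.1% did not overlap in either direction, so such separations were not more common here. Among 5 other ligand genes, all 4 tested had lower means. Dll1, a ligand gene of the same family as Dll4, had 3.26, 3.55 and 3.20 FPKM in controls and 3.02, 2.61 and 1.996 in the mutant-labelled libraries, with no overlap (log2 change -0.30 ± 0.12 SE, limma adjusted p = 0.453). Dlk2, a non-canonical ligand gene, had 2.94 ± 0.651 and 2.18 ± 0.836 FPKM (SD, n = 3 each). Among the proteases, 8 of 9 tested had a positive change. Adam10, which makes the first cut after ligand binding, had 22.5, 23.2 and 25.9 FPKM in controls and 28.0, 26.7 and 28.9 in the mutant-labelled libraries, with no overlap (log2 change 0.22 ± 0.07 SE, limma adjusted p = 0.309), and Adam17, a related protease, had 13.03 ± 1.14 and 14.6 ± 0.699 FPKM (SD, n = 3 each).

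None of the tested genes in the other roles passed the threshold. Among sugar transferases, Mfng, a fringe enzyme that tunes ligand choice, had 7.87 ± 1.04 and 9.38 ± 0.586 FPKM and Poglut1, which glucosylates the receptors, 14.7 ± 1.68 and 12.8 ± 1.11 (SD, n = 3 each). Among ubiquitin ligases that act on ligands, Mib1 had 1.23 ± 0.339 and 1.61 ± 0.243 FPKM and Neurl1b 1.80 ± 0.0288 and 1.91 ± 0.0906. Among genes of receptor turnover, Itch had 13.3 ± 1.14 and 14.2 ± 0.754 FPKM and Dtx2 8.24 ± 1.24 and 9.26 ± 0.431. In the nuclear complex, Rbpj, the DNA-binding partner of every Notch receptor, had 18.4 ± 0.561 and 19.3 ± 0.674 FPKM. The last list held other Hes and Hey family genes and Nrarp. In it, Hes6 had 18.0 ± 1.58 and 17.5 ± 1.67 FPKM, and whether Hes6 responds to Notch in this tissue was not tested. Nrarp, a feedback inhibitor that Notch induces, had 4.22 ± 0.142 and 3.83 ± 0.442 FPKM (SD, n = 3 each). Neither passed in limma. The groups of Nrarp overlapped, and its mean, like that of Hes1, was not higher in the mutant-labelled libraries.

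By position in GENCODE M21 on GRCm38, Jag1, Hes1, Hey1 and Heyl overlap no other annotated gene. Notch3 (chromosome 17, 32120820 to 32166852, minus strand) overlaps an antisense gene, and Dll4, from 119325784 to 119335962 of chromosome 2 on the plus strand, overlaps a noncoding gene on the other strand. Notch4, from 34564268 to 34588503 of chromosome 17, overlaps a pseudogene on the minus strand, Notch1 (chromosome 2, 26457903 to 26516663) 2 noncoding genes on the other strand and a microRNA gene, Notch2 (chromosome 3, 98013527 to 98150361) 2 unclassified genes on its own strand, and Jag2 (chromosome 12, 112907819 to 112929776) a microRNA gene. The sources do not say whether counting used strand, so reads in these stretches cannot be parted. On the minus strand, Hey1 spans 8663359 to 8667256 of chromosome 3 and Jag1 137081456 to 137116644 of chromosome 2, and on the plus strand Heyl spans 123233556 to 123249875 of chromosome 4 and Hes1 30064384 to 30067796 of chromosome 16.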

How the data were processed

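Per the submitters' processing notes, the authors worked on mm10 with Cufflinks 2.2.1, TopHat2 2.0.13, SAMtools 0.1.19 and Bowtie2 2.2.3, and deposited 1 table of values per library, taken as FPKM because Cufflinks gives that unit. Their options, annotation, strand setting and read totals are not stated there. Absolute depth is thus unknown, and the spread between libraries is the measure of precision. Values were used as deposited. Names averaging 1 FPKM or more entered a limma fit (version 3.58.1, R 4.3.3) of log2(FPKM + 1) on group, with trended eBayes. Its two-sided p-values were adjusted by Benjamini-Hochberg over 13180 genes (threshold 0.05). The procedure was tested on simulated data, but with changes larger than that of any member. How often it finds changes as small as those of the members was therefore not tested. A log2 change given here is of FPKM + 1 and so understates low genes, while ratios and percentages are of mean FPKM. Group and replicate number come from the titles. The numbers did not pair the libraries: deviations of same-numbered libraries correlated at 0.0163, -0.0714 and 0.0152.

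The members and gene lists were chosen with earlier results of these data known. Named are Pth1r, all 10 members, the 2 smallest p in each role of the other pathway genes (1 of these genes is not reported here), Pecam1, Cdh5 and the 3 smallest p of the endothelial list, the 2 most abundant genes of each other marker list (red cell genes, Hba-a1 and Hbb-bs, summed to 4846 to 6911 FPKM in controls and 2698 to 11946 in the mutant-labelled libraries), and the 3 genes most like Notch4 and Dll4. Alternatives were a pseudocount of 0.1, no filter, a filter at 5 FPKM, quantile normalization, median-of-ratios scaling, untrended eBayes, the replicate number as a block, and each library left out in turn.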

Additional observations from a re-analysis of the deposited data

How the results depend on the processing

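No member and none of the other pathway genes passed under any of the 14 other settings tried, 1 of which (control 2 and mutant-labelled library 2 left out together) was chosen after seeing the data. Over all genes the count past the threshold was 80 and fell to 50 with no filter on low values, to 25 with the replicate number as a block, to between 16 and 44 when 1 library was left out, and to 16 without control 2 and mutant-labelled library 2. The library whose removal left 16 was mutant-labelled library 1. The replicate block changed no call of a member. Settings with libraries left out had fewer libraries, and the one with no filter tested more genes (19049). The cause of these shifts was not tested. The members whose groups did not overlap in either direction numbered 6 under both scalings and 6 or 7 when 1 library was left out (24% to 27.6% of tested genes then). Without both libraries they numbered 8 (41.1%). Those higher numbered 6 or 7 when 1 library was left out (13.1% to 15.1% of tested genes) and 7 without both (22%). Jag2 was the member that was lower, without mutant-labelled library 2 and without both. The median-of-ratios scaling and quantile normalization changed the direction of no member.

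Directions that turned were those of small differences. With 1 library left out, the log2 change of Jag2 ran from -0.129 to 0.035 (positive without control 1 or mutant-labelled library 1 or 3), that of Dll4 from -0.027 (without mutant-labelled library 3) to 0.143, that of Hes1 from -0.133 to 0.023 (without mutant-labelled library 2) and that of Hes6 from -0.113 to 0.033 (without mutant-labelled library 3). The difference in the Notch2 share ran from -0.215 to 1.08 percentage points, negative without control 1, control 2 or mutant-labelled library 2. The difference in the Dll4 share ran from -1.22 to 1.63, negative without control 3 or mutant-labelled library 3, that in the Jag2 share from -4.28 to -0.203, and Dll4 relative to endothelial genes from -0.179 to -0.013. Without control 2 and mutant-labelled library 2 together, the log2 change was 0.065 for Hes1, 0.195 for Dll4 and -0.149 for Jag2, the Notch2 share differed by -0.643 points and the Dll4 share by 2.45, and Dll4 relative to endothelial genes by 0.015. Absolute depth being unknown, no limit from counting can be given.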
